A study of Homo sapiens with 6 samples.

Results

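The 7 human genes of the SR protein kinases, SRPK1, SRPK2, SRPK3, CLK1, CLK2, CLK3 and CLK4, were followed in SK-NEP-1 cells given either siEHMT2, a small interfering RNA that targets EHMT2 (3 libraries), or siNC, a control small interfering RNA (3 libraries). The members were taken by symbol from a table of 55765 gene rows, and all 7 were found. The group was chosen by the FPKM values of SRPK2, which had been seen to be lower in siEHMT2 than in siNC. The difference between these groups is therefore given as a description of the kinases, with no test of it, and nothing rests on it. SK-NEP-1 is an established cell line labelled as Wilms tumor and kidney, and EHMT2 encodes a methyltransferase of lysine 9 of histone H3. The titles of all 6 libraries name SK-NEP-1, but in the field for the cell line the number after SK-NEP differs between all of them, so a single line is taken from the titles. Separate cultures are not stated in the labels, so p-values reflect the spread among these libraries, which may be technical.

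SR proteins are splicing factors with a tail rich in arginine and serine. SRPK kinases phosphorylate this tail mainly in the cytoplasm, which lets the import receptor transportin-SR carry the SR protein into the nucleus. CLK kinases act in the nucleus, where further phosphorylation releases SR proteins from nuclear speckles to sites of splicing. CLK1 and CLK4 are also known for transcripts that keep introns in the nucleus until they are needed.

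Values were FPKM, fragment numbers divided by transcript length and by library size, which can be set side by side between genes because they are per length. Library sums of FPKM lay between 254293 and 272271 in siEHMT2 and between 244702 and 260890 in siNC, and the number of sequenced fragments is unknown. EHMT2 itself was at 7.61 to 16.2 FPKM in siEHMT2 and at 22.7 to 27.5 FPKM in siNC, highest within its group in siEHMT2 replicate 3. That library also stood apart in base composition: the deviation of its genes from their means rose with transcript GC content, with a Spearman rho of 0.573 across 11223 genes, against −0.139 and 0.107 in the other siEHMT2 libraries and −0.338 to −0.188 in siNC. Genes are not independent replicates. Of the markers of nephron progenitors that are reported here, SALL1 was highest, at 2.101 to 3.63 FPKM in siEHMT2 and 1.93 to 2.51 FPKM in siNC, while SIX2 and PAX2 did not exceed 0.234 FPKM in any library. The EWSR1-FLI1 lineage marker NKX2-2 stood at 103 to 134 FPKM in siEHMT2 and 120 to 130 FPKM in siNC, so the markers went against the label of a Wilms tumor line, and the cells are called SK-NEP-1 here. Of 9 markers of leukocytes, endothelium, fibroblasts, epithelium and red cells that were found, COL1A1 alone reached a mean of 1 FPKM over the libraries, with 0.736 to 1.17 FPKM in siEHMT2 and 1.19 to 1.37 FPKM in siNC.

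In both groups CLK2, SRPK1 and CLK1 were the most abundant kinase transcripts and SRPK3 the least. The order in siEHMT2 was CLK2 at 20.3 ± 5.91 FPKM, SRPK1 at 19.5 ± 1.41, CLK1 at 13.1 ± 0.986, CLK3 at 6.08 ± 1.10, SRPK2 at 4.25 ± 0.447, CLK4 at 2.299 ± 0.0480 and SRPK3 at 0.420 ± 0.201 FPKM (SD, n = 3). The order in siNC was CLK2 at 19.1 ± 2.97 FPKM, SRPK1 at 17.8 ± 2.27, CLK1 at 15.9 ± 0.832, SRPK2 at 8.31 ± 1.06, CLK3 at 5.26 ± 0.365, CLK4 at 3.02 ± 0.120 and SRPK3 at 0.252 ± 0.0306 FPKM (SD, n = 3). CLK2 and SRPK1 overlapped in both groups, and SRPK1 and CLK1 overlapped in siNC. All other neighbours in the order were separated in every library of their group. SRPK2 thus ranked below CLK3 in the siEHMT2 libraries and above it in the siNC libraries.

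**Figure D1:**
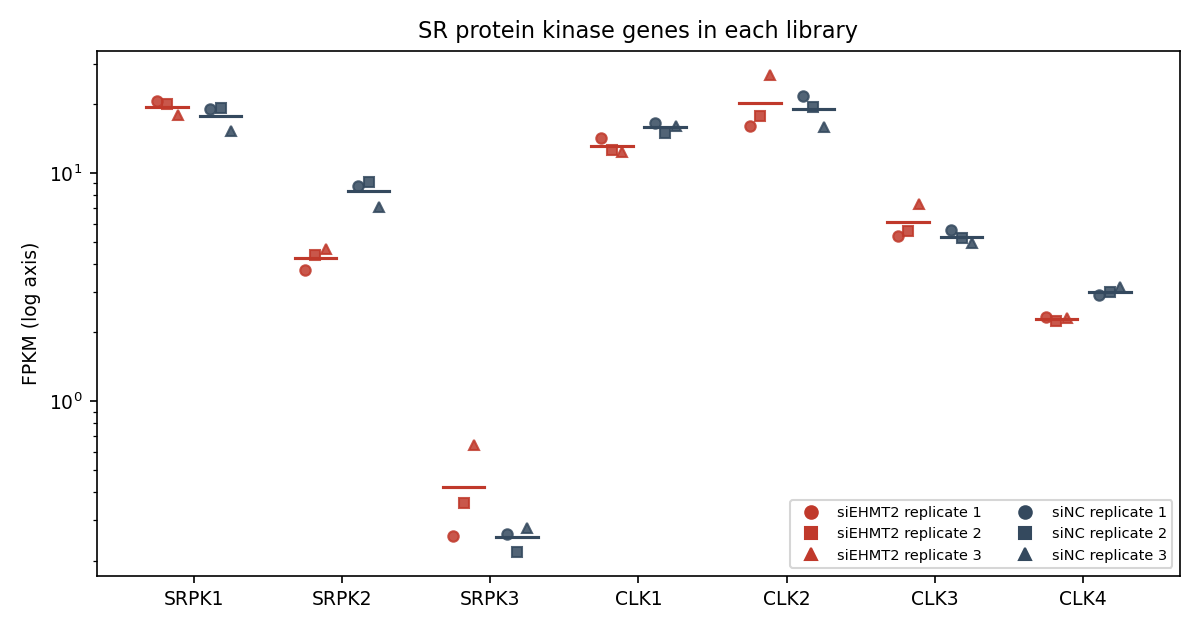
FPKM (log axis) of the 7 SR protein kinase genes in each library, siEHMT2 in red left of siNC in grey, with 1 symbol per replicate number and a line at the group mean. SRPK2 lies at 3.76 to 4.63 FPKM in siEHMT2 and at 7.10 to 9.09 FPKM in siNC, and CLK1 and CLK4 also do not overlap between the groups.

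Of the SRPK branch, SRPK2 held 3.76, 4.35 and 4.63 FPKM in siEHMT2 replicates 1, 2 and 3, against 8.73, 9.09 and 7.10 FPKM in siNC replicates 1, 2 and 3. Every siEHMT2 library was below every siNC library, and the siEHMT2 mean was 51.1% of the siNC mean. SRPK2 encodes the SRPK kinase that is abundant in brain and acts on the spliceosomal helicase DDX23 among other proteins. Its log2 fold change, siEHMT2 over siNC on the log2(FPKM + 1) scale, was −0.82 ± 0.13 (SE), the value at rank 51 from the lowest of the 12859 rows that averaged at least 1 FPKM and entered the fit. Without siEHMT2 replicate 3 it was −0.88. This is the difference for which the group was drawn up. In bulk RNA, fewer cells with a transcript and less transcript per cell cannot be told apart.

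SRPK1, the most studied kinase of the family and the main kinase of SRSF1, held 20.6, 20.04 and 17.9 FPKM in siEHMT2, against 19.1, 19.2 and 15.2 FPKM in siNC. The groups overlapped, with a log2 fold change of 0.13 ± 0.12 (SE). The ratio of SRPK2 to SRPK1 within a library, which does not depend on how libraries are scaled, was 0.182, 0.217 and 0.258 in siEHMT2, against 0.458, 0.473 and 0.467 in siNC. The siNC libraries were close to each other in this ratio (SD 0.00767), and the siEHMT2 libraries were spread more widely (SD 0.0381) but all below them. The ratio contains the SRPK2 values by which the group was chosen, so nothing is read from this separation. SRPK3, known for a role in muscle, held 0.256, 0.359 and 0.645 FPKM in siEHMT2, against 0.261, 0.218 and 0.278 FPKM in siNC. It stayed below the minimum for the fit, its groups overlapped, and siEHMT2 replicate 3 was its highest library. Summed over the 3 SRPK genes, the level was 24.6, 24.7 and 23.2 FPKM in siEHMT2, against 28.1, 28.5 and 22.6 FPKM in siNC.

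The CLK branch takes its family name LAMMER from a short signature in the kinase domain. The codons of that signature, in capitals with 9 bases on each side, are shown to compare the genes at that signature, and were read from GENCODE 29 transcripts (GRCh38, coding strand):
CLK1: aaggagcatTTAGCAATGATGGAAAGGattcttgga
CLK2: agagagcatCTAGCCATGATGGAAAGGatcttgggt
CLK4: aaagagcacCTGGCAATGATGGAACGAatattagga
In these 18 codon bases CLK1 and CLK2 shared 16, and CLK4 shared 14 with each of them. The same search found no match in the protein-coding transcripts of CLK3 or of the SRPK genes. It accepted only codons for exactly the letters LAMMER, so a variant of the signature would be missed. The lack of a match therefore does not show that CLK3 lacks the signature.

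CLK1, the founding member of the branch, held 14.2, 12.6 and 12.4 FPKM in siEHMT2, against 16.5, 14.9 and 16.1 FPKM in siNC. CLK4, another kinase of the branch, held 2.34, 2.25 and 2.31 FPKM in siEHMT2, against 2.91, 3.01 and 3.15 FPKM in siNC. Neither gene overlapped between the groups, with siEHMT2 lower in both. With SRPK2 they made 3 of 6 kinase genes in the fit without overlap, where 26.3% of all rows had none and 11.7% were lower with none. The log2 fold change was below 0 for 3 of 6 kinase genes and for 47.6% of all rows. Nothing is read from these counts, since the comparison was used to choose the group. The siEHMT2 mean was 82.4% of the siNC mean for CLK1 and 76.1% for CLK4. Their log2 fold changes were −0.26 ± 0.10 and −0.29 ± 0.11 (SE). The ratio of CLK1 to CLK4 within a library was 6.06, 5.62 and 5.36 in siEHMT2, against 5.69, 4.97 and 5.11 in siNC, so the ratios overlapped.

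CLK2, which is known for a role in liver metabolism as well as in splicing, held 16.00, 17.8 and 27.0 FPKM in siEHMT2, against 21.9, 19.5 and 15.9 FPKM in siNC. CLK3 held 5.32, 5.58 and 7.33 FPKM in siEHMT2, against 5.64, 5.21 and 4.92 FPKM in siNC. Both overlapped between the groups, and for both siEHMT2 replicate 3 was the highest and siNC replicate 3 the lowest of the 6 libraries. The log2 fold change of CLK2 was 0.06 ± 0.19 (SE), and without siEHMT2 replicate 3 it took the other sign, at −0.16. That of CLK3 was 0.17 ± 0.13, and 0.04 without siEHMT2 replicate 3.

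Summed over the 4 CLK genes, the level was 37.9, 38.2 and 49.02 FPKM in siEHMT2, against 46.95, 42.6 and 40.1 FPKM in siNC. The sum overlapped between the groups, while its makeup varied: CLK1 and CLK4 together stood to CLK2 and CLK3 together at 0.776, 0.637 and 0.428 in siEHMT2, against 0.707, 0.726 and 0.922 in siNC. The libraries numbered 3 were the lowest of siEHMT2 and the highest of siNC in this ratio, which was chosen after its values were seen. SRPK2 made up 6.02%, 6.91% and 6.41% of the FPKM of all 7 kinases in siEHMT2, against 11.6%, 12.8% and 11.3% in siNC. This share too rests on the values by which the group was chosen.

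**Figure D2:**
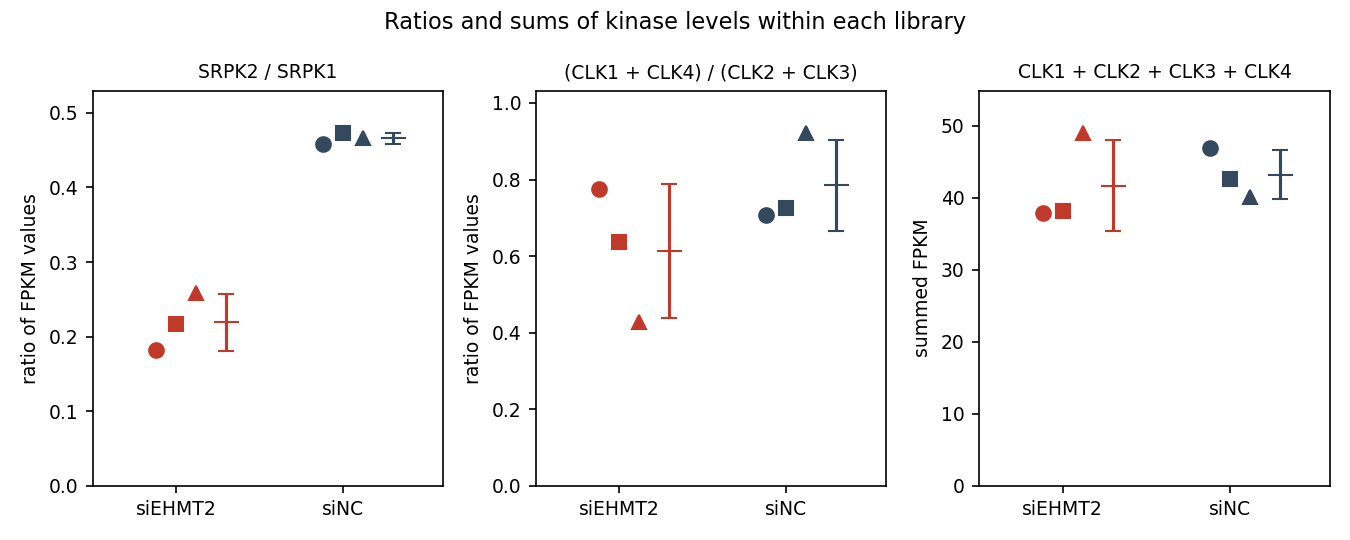
Within-library ratios of FPKM (left and middle panels) and summed FPKM (right panel), siEHMT2 in red left of siNC in grey. Symbols are replicates 1 (circle), 2 (square) and 3 (triangle), and bars give mean ± SD (n = 3). The ratio of SRPK2 to SRPK1 separates the groups, at 0.182 to 0.258 in siEHMT2 and 0.458 to 0.473 in siNC, while the other panels overlap. That ratio contains the SRPK2 values by which the group was chosen.

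Transcript base composition differed within the family. The median GC content of the GENCODE 29 transcripts was 37.2% for CLK1, 37.4% for CLK4, 42.3% for SRPK1, 43.8% for SRPK2, 55.1% for CLK2, 56.4% for CLK3 and 62.1% for SRPK3. Fold changes of all genes rose with GC content, with a Spearman rho of 0.387 across 11223 genes. With a correction for GC content in each library, chosen after the data were seen, the log2 fold change was −0.12 for CLK1, −0.14 for CLK4, −0.03 for CLK2, 0.07 for CLK3 and 0.21 for SRPK1. The differences of CLK1 and CLK4 were smaller with the correction, while that of SRPK1 was larger, at 0.21 against 0.13 as deposited. For SRPK2 it was −0.76 ± 0.13 (SE), against −0.82 as deposited. Whether base composition accounts for any of these differences was not tested.

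**Figure D3:**
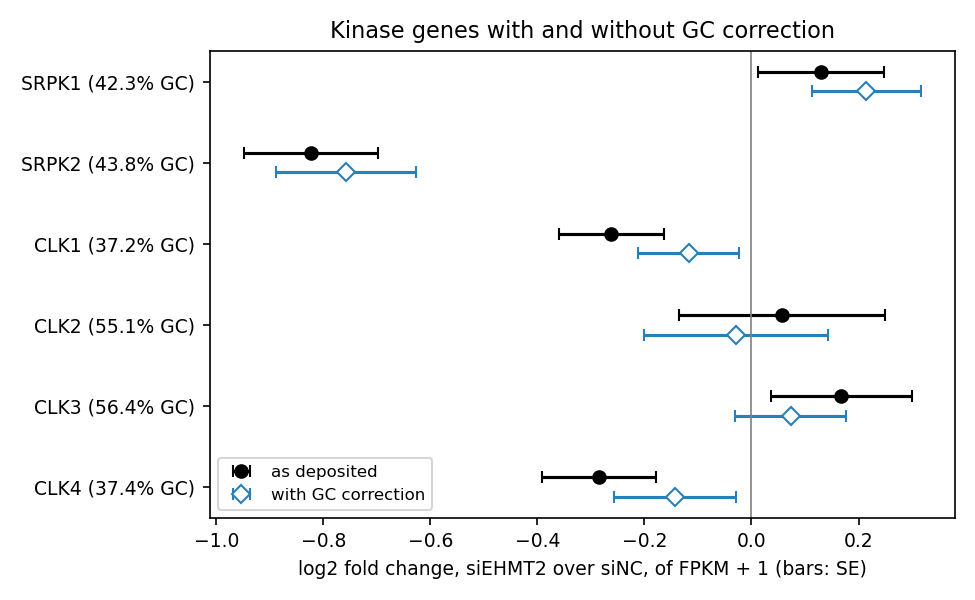
Log2 fold change of FPKM + 1, siEHMT2 over siNC, for the 6 kinase genes in the fit, with SE bars, from the values as deposited (filled circles) and after GC correction (open diamonds). SRPK2 lies at −0.82 and −0.76, while CLK1 and CLK4 lie at −0.26 and −0.29 as deposited and at −0.12 and −0.14 after the correction.

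**Figure D4:**
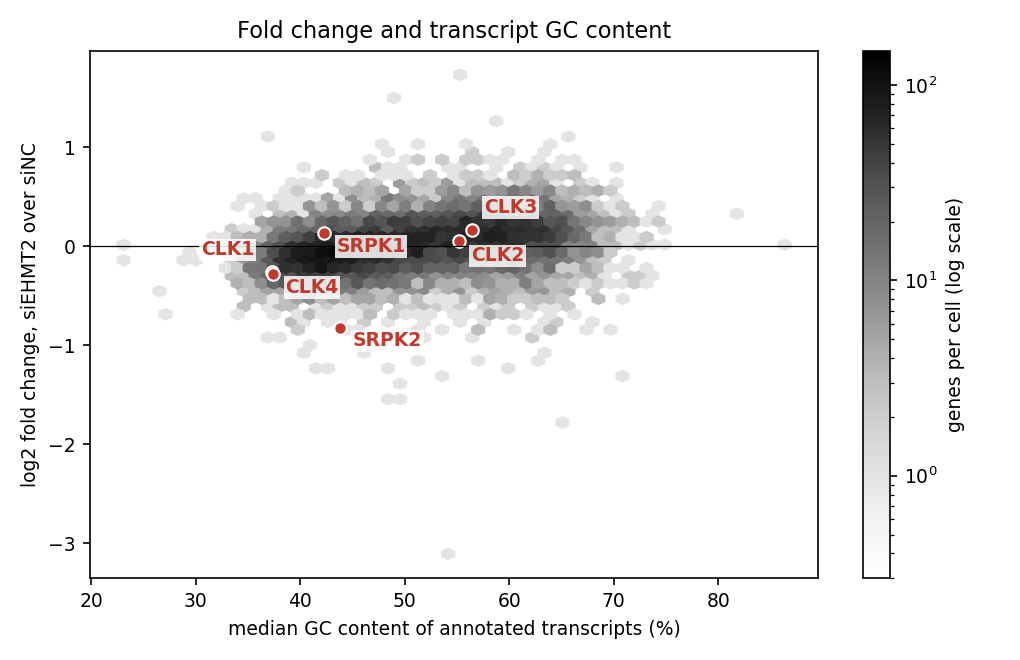
Log2 fold change, siEHMT2 over siNC, against the median GC content of annotated transcripts for 11223 genes (grey cells, darker for more genes), with the kinase genes in red. CLK1 and CLK4 lie in the low-GC part of the cloud, CLK2 and CLK3 in its high-GC part, and SRPK2 lies at −0.82, near the lower edge of the cloud.

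The family also differed in annotated transcript types, which enter 1 value per gene in a way the sources used here do not give. GENCODE 29 lists 15 transcripts of CLK1, of which 8 are typed as retained introns and 4 as protein-coding, and 15 of CLK4, of which 7 are retained introns and 4 protein-coding. It lists 8 retained introns among 27 transcripts of CLK3, 4 among 13 of SRPK1, 2 among 15 of SRPK2, and 0 for CLK2 and SRPK3. Spliced and intron-keeping forms of CLK1 and CLK4 therefore cannot be told apart in these values.

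For the 3 kinases whose groups did not overlap, the bases before a RefSeq start (GRCh38.p14, minus strand in each case) are shown to compare their promoters. The windows of 250 bases were cut where an exon of GENCODE 29 begins, and capitals mark motif matches on either strand. The window of SRPK2, the richest in CpG of its 4 RefSeq starts, is chr7:105388922-105389171, that of CLK1 chr2:200864745-200864908, and that of CLK4 chr5:178627115-178627300:
SRPK2: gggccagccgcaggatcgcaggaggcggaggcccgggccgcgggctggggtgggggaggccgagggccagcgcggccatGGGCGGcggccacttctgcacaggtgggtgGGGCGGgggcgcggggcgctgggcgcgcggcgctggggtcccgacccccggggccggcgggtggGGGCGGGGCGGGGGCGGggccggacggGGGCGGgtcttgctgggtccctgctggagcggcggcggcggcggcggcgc
CLK1: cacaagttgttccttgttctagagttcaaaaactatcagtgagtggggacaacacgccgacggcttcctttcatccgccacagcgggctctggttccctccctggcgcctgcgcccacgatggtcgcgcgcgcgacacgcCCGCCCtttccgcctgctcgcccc
CLK4: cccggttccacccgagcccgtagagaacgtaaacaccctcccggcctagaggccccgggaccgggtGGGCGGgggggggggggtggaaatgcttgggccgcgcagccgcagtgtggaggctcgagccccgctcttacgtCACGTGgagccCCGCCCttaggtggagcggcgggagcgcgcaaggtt
The full windows held 36 CpG in SRPK2, 30 in CLK1 and 29 in CLK4, against a median of 11 over 35116 RefSeq promoter windows. The windows of the 3 other SRPK2 starts held 7, 4 and 1 CpG, and that of another CLK1 start held 33. The GC box GGGCGG was found 6 times in the SRPK2 window shown, where some matches overlap, and 0 times in its other windows, and 2 times in each of the full CLK1 and CLK4 windows, and 42.6% of all windows hold it. The E-box CACGTG was found 1 time in the CLK4 window and 1 time in that of CLK2, and 6.34% of all windows hold it. The WT1/EGR core GCGTGGG (6.19% of windows), the ETS core CCGGAAG (8.52%) and the CCAAT box CCAAT (32% of windows) were not found in the 3 windows shown. These matches describe the letters and not binding.

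By its values over the 6 libraries relative to siNC, SRPK2 was most like MN1, a transcriptional coactivator gene. Likeness was the root mean square difference of log2(FPKM + 1) profiles, each centred on its siNC mean, over 12858 rows. It was 0.0723 for MN1, 0.0778 for ELOVL2, a fatty acid elongase gene, 0.1003 for RP11-843P14.1, 0.112 for CCSAP, a centriole and spindle protein gene, and 0.114 for IGF2, a growth factor gene, against a median of 0.626. MN1 held 6.22, 7.44 and 9.06 FPKM in siEHMT2, against 14.7, 15.5 and 12.4 FPKM in siNC. ELOVL2 held 6.06, 6.61 and 7.46 FPKM in siEHMT2, against 11.8, 13.03 and 11.1 FPKM in siNC. Both share with SRPK2 the highest siEHMT2 value in replicate 3 and the lowest siNC value in replicate 3. RP11-843P14.1 and IGF2 do so too, while CCSAP had its highest siEHMT2 value in replicate 2. These rows were picked for likeness over the same values, so nothing is read from what they share. Of the other kinases in the fit, CLK4 and CLK1 were nearest, at 0.407 and 0.435 (ranks 928 and 1273), and SRPK1, CLK2 and CLK3 lay between 0.647 and 0.709 (ranks 7098 to 9029).

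The 12 SR proteins SRSF1 to SRSF12, the main substrates of both kinase branches, were not among the values that drew up the group, though this list too was chosen with earlier results of these data known. None passed the test over all genes (limma adjusted p under 0.05, as for 0.552% of all rows), with an adjusted p from 0.215 to 0.985, and 1 had an unadjusted p under 0.05, as did 18.8% of all rows. Of the 12, 4 were higher and 8 lower in siEHMT2, at a median of −0.09 on the log2 scale, against 0.01 over all rows. SRSF1, the prototype SR protein, held 153.5, 155.3 and 139 FPKM in siEHMT2, against 151, 138 and 158 FPKM in siNC, a log2 fold change of 0.01 ± 0.10 (SE) that took the other sign under both rescalings of the libraries. The groups did not overlap for 3 of the 12, SRSF7, SRSF11 and SRSF12, all lower in siEHMT2, where 11.7% of all rows were lower with no overlap. SRSF12, with the smallest p, held 3.80, 3.71 and 2.64 FPKM in siEHMT2, against 4.70, 4.10 and 5.06 FPKM in siNC. SRSF11 held 43.6, 43.8 and 43.7 FPKM in siEHMT2, against 47.9, 50.3 and 50.6 FPKM in siNC.

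The SR protein values varied with the libraries numbered 3. Of the 12 genes, 10 had their highest value in siNC replicate 3 and 6 their lowest in siEHMT2 replicate 3. SRSF2, a component of nuclear speckles, held 203, 175 and 149 FPKM in siEHMT2, against 170, 158 and 228 FPKM in siNC. The summed level of the 12 genes was 839, 778 and 700 FPKM in siEHMT2, against 784, 744 and 935 FPKM in siNC. In a fit without both libraries numbered 3, added with the data in view, 8 were higher and 4 lower, with a median of 0.07. SRSF8 was called there, higher in siEHMT2 (log2 fold change 0.49, limma adjusted p = 0.0185). That fit called 1890 of all 12859 rows, in either direction.

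**Figure D5:**
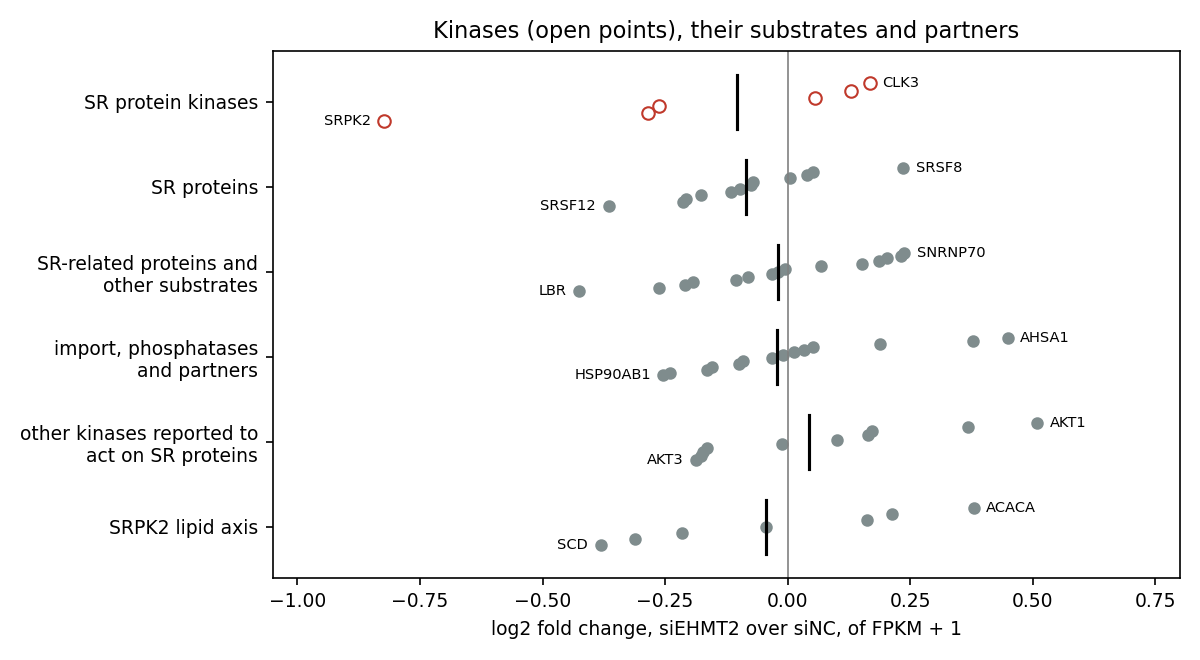
Log2 fold change of FPKM + 1, siEHMT2 over siNC, of the genes in the fit for the kinases and 5 related lists, with 1 point per gene and a bar at each list's median. The kinases are open points, given with no test, and SRPK2 at −0.82 is the value for which the group was drawn up. The 5 related lists lie between −0.43 and 0.51, with no member past a limma adjusted p of 0.05.

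Of 16 SR-related proteins and other substrates, 15 entered the fit, 6 higher and 9 lower (median −0.02), and none passed. LBR, the lamin B receptor and a classical SRPK1 substrate, held 48.0, 45.3 and 36.8 FPKM in siEHMT2, against 56.3, 56.3 and 62.3 FPKM in siNC (log2 fold change −0.43 ± 0.12 SE, limma adjusted p = 0.117). The groups did not overlap for LBR, as for 26.3% of all rows in either direction. RBM39, a splicing coactivator, held 33.6, 32.2 and 36.4 FPKM in siEHMT2, against 41.1, 41.4 and 40.6 FPKM in siNC (log2 fold change −0.26 ± 0.09 SE, limma adjusted p = 0.173). DDX23, the helicase that SRPK2 phosphorylates, held 38.1, 36.4 and 43.4 FPKM in siEHMT2, against 35.4, 34.4 and 33.1 FPKM in siNC, with a limma adjusted p of 0.342. LUC7L2 stayed below the minimum for the fit. Without both libraries numbered 3, RBM39 and TRA2A were called, both lower in siEHMT2 (limma adjusted p = 0.0383 and 0.0362). Of all 12859 rows, 1890 were called in that fit.

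Among 14 genes of import, phosphatases and kinase partners, 6 were higher and 8 lower (median −0.02), and none passed. TNPO3, which encodes transportin-SR, held 28.8, 32.5 and 35.3 FPKM in siEHMT2, against 34.7, 39.0 and 30.1 FPKM in siNC, and the groups overlapped. AHSA1, a cochaperone of HSP90 reported to bind SRPK1, held 29.6, 27.9 and 40.3 FPKM in siEHMT2, against 25.8, 23.4 and 21.02 FPKM in siNC (log2 fold change 0.45 ± 0.15 SE, limma adjusted p = 0.160). The AHSA1 groups did not overlap, as for 26.3% of all rows in either direction. Without both libraries numbered 3, PPP1CB, a catalytic subunit of protein phosphatase PP1, was called, higher in siEHMT2 (limma adjusted p = 0.0259). Of all 12859 rows, 1890 were called in that fit.

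Of 10 other kinases reported to act on SR proteins, 5 were higher and 5 lower (median 0.04), and none passed. AKT1, which acts on SR proteins and on SRPK kinases downstream of growth factors, came nearest. It held 13.8, 15.2 and 16.7 FPKM in siEHMT2, against 11.3, 10.3 and 9.58 FPKM in siNC, without overlap (log2 fold change 0.51 ± 0.11 SE, limma adjusted p = 0.0727). Over all rows, 26.3% had no overlap in either direction. CDK11A held 11.6, 11.1 and 13.8 FPKM in siEHMT2, against 9.29, 7.97 and 10.3 FPKM in siNC, with a limma adjusted p of 0.178. It has a near-identical copy, CDK11B, and how reads were divided between them is not shown. Without both libraries numbered 3, AKT1 was called higher and PRPF4B lower in siEHMT2 (limma adjusted p = 0.0372 and 0.0251). Of all 12859 rows, 1890 were called in that fit.

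SRPK2 has been linked to lipid synthesis through the kinases S6K1 and CK1, and 7 genes of that axis were followed. Of these 3 were higher and 4 lower (median −0.04), and none passed, while 4 had an unadjusted p under 0.05, as had 18.8% of all rows. SCD, a desaturase, held 58.4, 64.3 and 68.1 FPKM in siEHMT2, against 86.4, 88.0 and 75.2 FPKM in siNC (log2 fold change −0.38 ± 0.11 SE, limma adjusted p = 0.117). ACACA, which starts fatty acid synthesis, held 10.2, 12.9 and 11.01 FPKM in siEHMT2, against 8.56, 9.57 and 7.38 FPKM in siNC (log2 fold change 0.38 ± 0.13 SE, limma adjusted p = 0.165). Neither overlapped between the groups, and they pointed in opposite directions. Of the 7 genes, 3 were lower and 2 higher without overlap, where 11.7% of all rows were lower and 14.6% higher with none. Without both libraries numbered 3, SCD was called lower in siEHMT2 (limma adjusted p = 0.018). Of all 12859 rows, 1890 were called in that fit.

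Of 6 upstream and splicing-target genes, 5 entered the fit, 4 higher and 1 lower (median 0.10), and none passed. WT1, the Wilms tumor gene and reported to repress SRPK1, held 1.56, 1.34 and 1.13 FPKM in siEHMT2, against 0.897, 0.895 and 1.33 FPKM in siNC, and the groups overlapped. MYC, reported to activate SRPK1, held 84.3, 80.01 and 78.3 FPKM in siEHMT2, against 93.01, 85.5 and 93.9 FPKM in siNC, without overlap (log2 fold change −0.16 ± 0.09 SE, limma adjusted p = 0.368). MKNK2, whose splicing is a known target of SRSF1, held 15.8, 17.4 and 17.8 FPKM in siEHMT2, against 13.5, 12.4 and 9.82 FPKM in siNC, without overlap (log2 fold change 0.49 ± 0.13 SE, limma adjusted p = 0.106). Over all rows, 26.3% had no overlap in either direction. Values per gene do not show which splice form was made.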

How the data were processed

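Total RNA libraries of SK-NEP-1 cells (NEBNext Ultra kit, per the labels' protocols) were compared between 3 siEHMT2 and 3 siNC libraries, grouped by sample title. The authors deposited FPKM values per gene and library, per the file headers. Per the submitters' processing notes the build was hg19 and the tools included StringTie 2.2.0, HISAT2 2.2.1, fastp and SAMtools 1.4.1, with no roles given. The annotation, the strand setting and the rule that combined transcripts are not given in the sources used here, so overlapping and antisense genes cannot be separated.

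Rows that averaged 1 FPKM or more were fitted in limma 3.58.1 (R 4.3.3) as log2(FPKM + 1) (mean-variance trend, no covariates, two-sided, Benjamini-Hochberg adjusted p under 0.05). The pseudocount of 1 makes fold changes of low genes smaller. FPKM are not counts, whole reads were not recovered, and no count model was used. An exact permutation of 3 against 3 libraries cannot go below 0.1 and was not used. The fit was tested on simulated data. The members and lists were chosen with earlier results of these data known. Named genes were EHMT2, EHMT1, the kinases, SRSF1, TNPO3, WT1 and MYC, from each list up to 4 members past the threshold or else the 2 with the smallest p, and the 5 rows nearest to SRPK2 in profile. Other named genes (such as SRSF2, SRSF7, SRSF8, TRA2A, DDX23, PPP1CB, PRPF4B, NKX2-2, SALL1, SIX2 and PAX2) were chosen after their values were seen. The values of 2 genes that the rule named are not reported here; both still count in their lists. Of 97 list entries, 96 were found by symbol. GC content and transcript types came from GENCODE 29 (87.3% of tested rows) and promoters from RefSeq (GRCh38.p14), matched by symbol for all 7 kinases, with no coordinates taken over to hg19. EHMT1, the partner of EHMT2, was at 9.53 ± 0.306 FPKM in siEHMT2 and 8.29 ± 0.262 FPKM in siNC (SD, n = 3). From the other marker lists the rule named PAX7 (siEHMT2 60.7 to 75.9 FPKM, siNC 93.8 to 98.0 FPKM), STEAP1 (21.8 to 27.4 against 27.7 to 30.7 FPKM) and EYA1 (1.75 to 2.02 against 0.988 to 1.63 FPKM), none past the threshold. Among the alternatives, PAX7 lay past it, lower in siEHMT2, with GC correction (limma adjusted p = 0.0436), with both array weightings (0.00715 and 0.00902) and without both libraries numbered 3 (0.0343). STEAP1 did so with both weightings (0.00581 and 0.0121) and without both libraries numbered 3 (0.0251). Of all 12859 rows, the weightings called 3797 and 2936 and the fit without both libraries numbered 3 called 1890. The fit with GC correction called 100 of the 11223 rows with a GC value.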

Additional observations from a re-analysis of the deposited data

How the results depend on the processing

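A total of 33 named genes was refitted under 19 alternatives, 15 of them planned and 4 chosen after the data were seen (GC correction, replicate block with GC correction, gene-by-gene array weights, and both libraries numbered 3 left out). Direction was kept in all of them by 31 genes, and CLK2 and SRSF1 were the exceptions. As reported, limma called 71 of 12859 genes, 44 higher and 27 lower. The count was 0 without the filter on low values, where 3641 had an unadjusted p under 0.05, 134 at a minimum of 5 FPKM, 31 with libraries rescaled to the same sum (10 higher and 21 lower), 30 without a trend and 1890 without both libraries numbered 3. It was 3797 with array weights, whose estimate did not converge, and 2936 with gene-by-gene weights. Leaving out 1 library gave 0 to 172.

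The replicate numbers are not stated to pair the samples. Same-numbered libraries' deviations from their group means correlated at −0.35, 0.0871 and −0.39 for numbers 1, 2 and 3. Differently numbered libraries correlated at −0.37 to 0.48. Deviations within a group of 3 libraries depend on each other, so these values cannot decide whether samples were paired. With a replicate block 0 genes were called, with and without GC correction, where 1514 and 1845 had an unadjusted p under 0.05. SRPK2, a description with no test, was at −0.82 with the block and −0.76 with block and GC correction. Its value was −0.82 without the filter and without a trend and −0.86 with equal sums. It ran from −0.92 to −0.75 with 1 library left out and from −0.97 to −0.75 over all alternatives.

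CLK2 turned to −0.18 and −0.20 with the array weights, −0.28 without both libraries numbered 3 and −0.029 with GC correction, with or without the block. With 1 library left out CLK2 ran from −0.16 to 0.20, and was below 0 without either library numbered 3. SRSF1 turned to −0.042 with equal sums, −0.014 with median-ratio scaling and −0.0020 with GC correction, with or without the block. It ran from −0.050 to 0.055 with 1 library left out, and was below 0 without siEHMT2 replicate 1 or 2 or siNC replicate 2. Of the 12 SR proteins, 8 were lower, but 4 without both libraries numbered 3. That fit and both weightings each called 1 SR protein. The lists of other substrates, partners, other kinases and the lipid axis had 15, 14, 10 and 7 genes in the fit. Of these combined, array weights called 16, gene-by-gene weights 11 and the fit without both libraries numbered 3 called 6, against 0 otherwise. Over all 12859 rows the same fits called 3797, 2936 and 1890, and nothing is read from the list counts. The causes were not tested. The order of the kinases in siNC had 4 separated neighbours, 4 without siNC replicate 1 or 2 and 6 without siNC replicate 3. The depth is unknown, which limits what low genes such as SRPK3 and WT1 can show.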
